A study of Mus musculus with 26 samples.

Results

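Transcript levels of the p53 family and of its classical targets were followed in mouse testis and sorted male germ cells. The 10 genes are Trp53, Trp63 and Trp73, which encode p53, p63 and p73, the inhibitor gene Mdm2, and the target genes Cdkn1a, Bax, Bbc3, Pmaip1, Ccng1 and Zmat3. They were taken by symbol from a table of 24682 gene symbols, and all 10 were found in every library. The widest genotype difference was that of Trp63 in Sox30 knockout testes, and the widest stage differences in sorted cells were those of Pmaip1, Bbc3 and Trp53.

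Whole testes came from C57BL/6 mice at postnatal day 21, an age at which the first wave of germ cells reaches late meiosis and the earliest spermatids. The Nkapl set holds 3 wild-type and 2 Nkapl knockout libraries, the Sox30 set holds 3 wild-type and 2 Sox30 knockout libraries, and the TGdel set holds 2 wild-type and 3 libraries from Nkapl TGdel/TGdel mice. A frameshift mutation of NKAPL stands in the title of the series, and the labels do not describe the TGdel allele further. Sorted cells are pachytene spermatocytes, the cells of the long middle stage of meiotic prophase, and round spermatids, the haploid cells that follow, each with 2 libraries per group of wild-type and Nkapl knockout origin. Titles of the sorted samples also give 21 days, and no strain is labelled for them. Nkapl and Sox30 encode nuclear proteins of male germ cells. Total counts were 20120729 to 25514132 in the Nkapl set, 34167576 to 40010106 in the Sox30 set, 16469667 to 17822056 in the TGdel set and 18155299 to 19569272 in sorted cells. No label says that libraries of 1 group came from separate animals, so p-values measure the spread between these libraries, which may be technical.

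Libraries were grouped by the heading inside each count file. For 4 of the 15 testis libraries, the heading and the record of the file name different groups. These are wild type 3 of the Nkapl set, wild type 3 of the Sox30 set, wild type 2 of the TGdel set and TGdel 3, and the members' differences in testis are given with and without them. Values are CPM, which are counts scaled to a common library total within each set, unless a log2 value is named. Nkapl stood at 74.9, 79.5 and 79.9 CPM in the 3 wild-type testes that go with its knockout and at 60.8 and 57.8 CPM in that knockout (log2 difference -0.40 ± 0.05, edgeR adjusted p = 2.96e-06, and -0.38 without wild type 3). In round spermatids Nkapl was 88.4 and 90.3 CPM in the wild type and 24.6 and 23.6 CPM in the knockout. Wild-type spermatocytes had 90.1 and 86.0 CPM, and those labelled knockout had more, 127 and 125 CPM. This direction is opposite to that in knockout testes and spermatids and puts the label in doubt, although RNA level alone cannot settle it. The spermatocytes in question are therefore called spermatocytes labelled knockout, and every direction drawn from them rests on that label. Sox30 was 77.6, 86.2 and 72.4 CPM in the wild type of its set and 44.7 and 61.5 CPM in the knockout, and this difference did not pass (-0.57 ± 0.15, edgeR adjusted p = 0.170). Between TGdel and its wild type, Nkapl differed by 0.20 ± 0.09 and did not pass. It was 107 to 126 CPM in TGdel testes and 101 to 103 CPM in their wild type, so this Nkapl mutant had no less Nkapl RNA. Round spermatid markers summed to 7985 to 8146 CPM in wild-type spermatids and to 2530 to 2654 CPM in wild-type spermatocytes. The pachytene list summed to 8956 to 9118 CPM in these spermatocytes and 9999 to 10413 CPM in these spermatids. Of its 12 genes, 7 were called higher and 5 lower in spermatids. This sum therefore does not mark spermatocytes here, and the reason was not tested.

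p53 is a transcription factor that DNA damage and other stress stabilise, and it drives genes for cell cycle arrest, DNA repair and mitochondrial cell death. Mdm2 is itself a p53 target and encodes the ubiquitin ligase that sends p53 to degradation, which closes a feedback loop. p63 and p73 share its DNA-binding domain. p63 is best known for basal cells of stratified epithelia and, as the TAp63 form, for germ cell quality control. In the testis, p53 is associated with the removal of damaged spermatogonia and spermatocytes. The family binds pairs of a decamer known as the p53 half-site. Cdkn1a and Ccng1 are shown here because a window of 250 bases before a RefSeq start of each holds such a pair, with the matched bases in capitals, 5′ to 3′ on the gene's strand.
Cdkn1a, GRCm38.p6, chr17:29090729-29090978, plus strand: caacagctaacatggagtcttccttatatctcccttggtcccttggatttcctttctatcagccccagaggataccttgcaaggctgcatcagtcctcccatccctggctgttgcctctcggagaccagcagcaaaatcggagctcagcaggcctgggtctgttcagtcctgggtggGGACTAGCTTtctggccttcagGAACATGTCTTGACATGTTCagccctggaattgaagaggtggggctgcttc
Ccng1, GRCm38.p6, chr11:40755287-40755536, minus strand: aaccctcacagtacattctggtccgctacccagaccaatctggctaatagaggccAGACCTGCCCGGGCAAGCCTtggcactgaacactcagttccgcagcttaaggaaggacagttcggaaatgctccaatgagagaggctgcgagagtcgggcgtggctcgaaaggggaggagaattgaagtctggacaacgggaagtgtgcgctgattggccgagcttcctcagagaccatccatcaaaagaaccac
The search used the p53 half-site by its consensus on both strands. A pair allowed 1 mismatch over both decamers, outside the central C and G, and up to 13 bases between them. In Cdkn1a the capitals start 73 and 51 bases before the start site, and in Ccng1 they start 195 bases before it. Among 32841 promoter windows of the same length, 7.13% held an exact half-site and 0.505% held a pair. Single exact half-sites were AGGCAAGCTT in the Bax window, 201 bases before the start, GAACTTGCCT in the Mdm2 window, 186 bases before it, and GGACTTGCCC in the Trp53 window, 75 bases before it. The windows of Trp73 and Bbc3, and a second Cdkn1a window at 29093519 to 29093768, held no exact half-site and no pair. Windows were searched for 7 of the 10 members, and a match is a description of these letters.

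Levels per kilobase of exon put Mdm2 far above the other members. Across wild-type testes of the Nkapl set the means per kilobase were 40.2 CPM for Mdm2, 8.37 for Trp53, 7.36 for Bax, 5.69 for Ccng1, 3.20 for Zmat3, 2.19 for Pmaip1, 1.88 for Cdkn1a, 1.77 for Bbc3, 0.482 for Trp63 and 0.0407 for Trp73. Wild-type spermatids gave a different order below Mdm2, which stood at 45.0 CPM per kilobase. There Bbc3, at 2.95, and Zmat3, at 2.90, came before Trp53 at 1.12 and Bax at 1.03, and Pmaip1 was at 0.202. The libraries of Bbc3 and Zmat3 overlapped on this scale, and so did those of Trp53 and Bax. Trp73 had 0 to 14 counts per library, and its count of 0 in knockout spermatids 2 allows up to 0.172 CPM. It was kept by the filter on low counts only in the Sox30 set, where its log2 difference was 0.59 ± 0.70 (SE), and it was not tested elsewhere. The remaining 9 members were tested in every comparison.

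**Figure D1:**
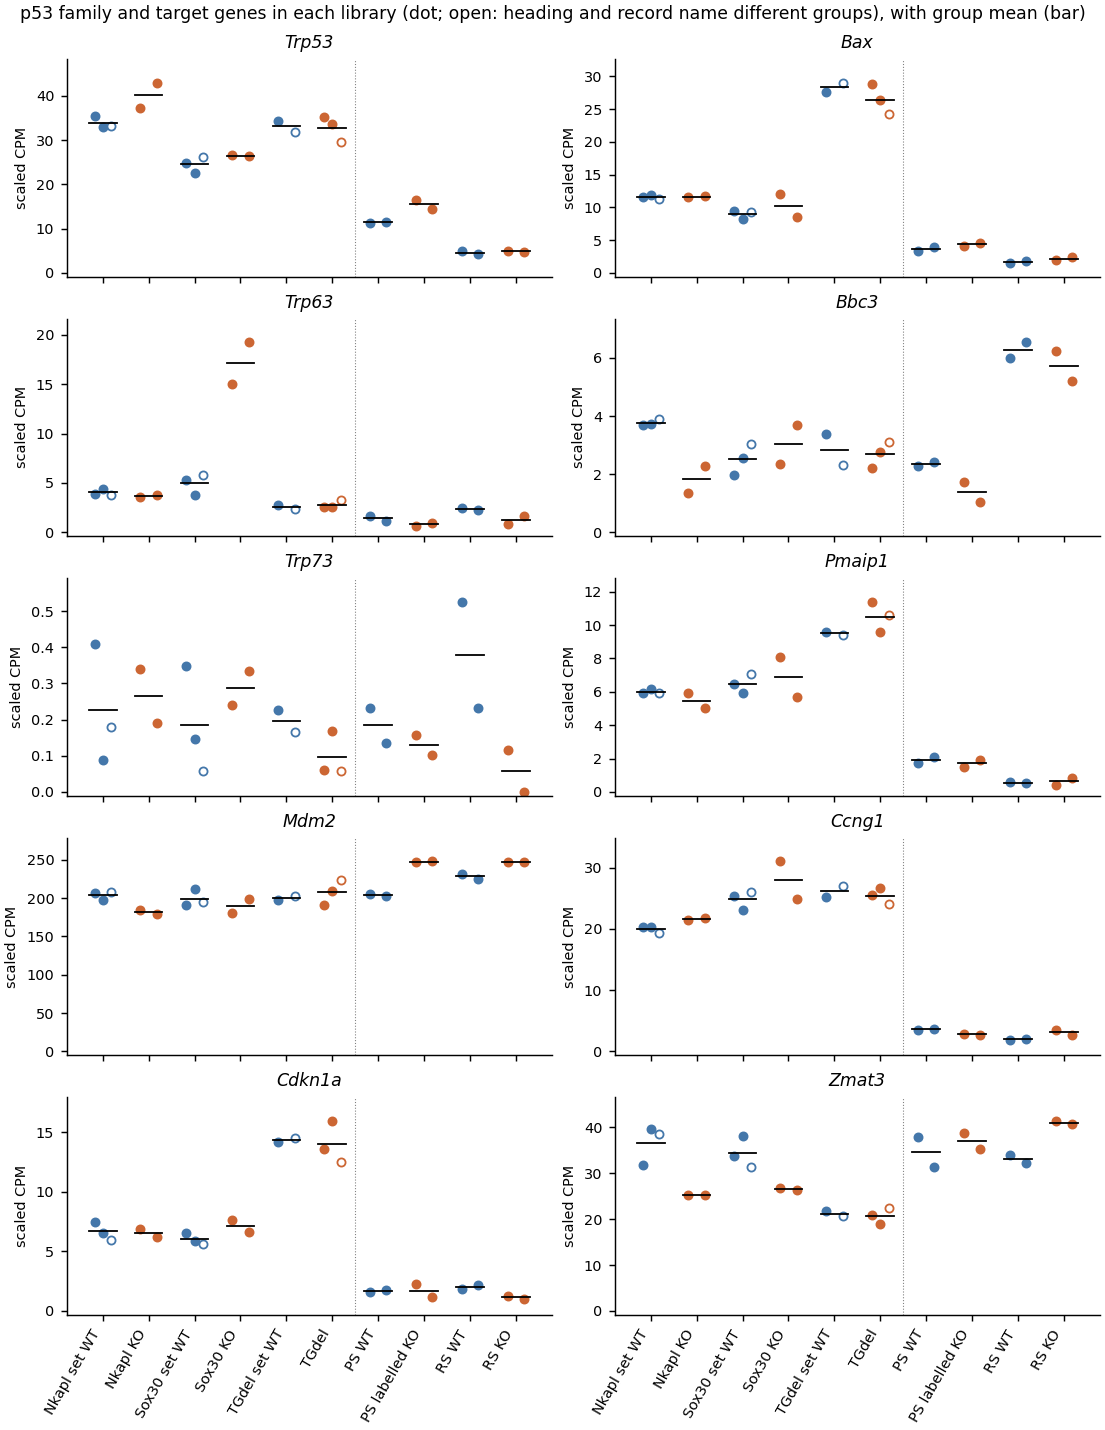
Scaled CPM (vertical axes, each from 0) of the 10 genes in each of the 23 libraries, by group, with the group mean as a bar. Blue marks wild-type and orange mutant groups, and open circles are the 4 libraries whose heading and record name different groups. Trp63 stands at 15.0 and 19.2 CPM in the Sox30 knockout testes, and Bax and Cdkn1a stand highest in the TGdel set in both genotypes.

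The testis sets differed among their wild-type groups as well. Bax was 27.6 and 29.0 CPM in the wild type of the TGdel set, against 11.2 to 11.9 CPM in that of the Nkapl set and 8.29 to 9.43 CPM in that of the Sox30 set. Cdkn1a was 14.2 and 14.5 CPM in the wild type of the TGdel set and at most 7.49 CPM in the other wild-type testes. Zmat3 went the other way, with 20.7 and 21.7 CPM in the wild type of the TGdel set and 31.3 to 39.6 CPM elsewhere. The share of counts from the ribosomal RNA precursor Rn45s was 0.497% in TGdel 1, at most 0.0713% in the other 4 libraries of that set, and 2.78 to 5.53% in the other testis sets, so the set and what differs in its libraries cannot be told apart, and genotypes were compared only within a set.

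In Nkapl knockout testes, Trp53 was modestly higher and Mdm2, Bbc3 and Zmat3 were lower than in wild-type testes of the set. Bbc3, which encodes the pro-death BH3-only protein PUMA, was about 50.5% lower, the largest difference of the 9 members tested. Cdkn1a and Bax differed by -2.16% and 0.23% and were not called. edgeR's quasi-likelihood test called 1 member higher and 3 lower. In the same fit 43.9% of all genes tested passed, 17.8% higher and 26.1% lower, so the share of members called is near the background. The median absolute log2 difference was 0.14 over the members and 0.20 over all genes. Groups did not overlap for 6 of the 9 members and for 62.4% of all genes tested.

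Trp53, on chromosome 11 at 69580359 to 69591873 of GRCm38, measured 35.5, 32.9 and 33.1 CPM in wild-type testes and 37.4 and 43.0 CPM in knockout testes. Both knockout libraries lay above all 3 wild-type libraries. The log2 difference was 0.25 ± 0.07 (SE, edgeR adjusted p = 0.00513). It was 0.24 (adjusted p = 0.0332) without wild type 3, whose record names another group, and 0.14 (adjusted p = 0.197) without knockout 2. Grouping by the file record gave 0.15 (adjusted p = 0.640). Wrap53, the neighbour that is read the opposite way from beside the Trp53 start and does not overlap it in the annotation, was also higher, by 0.29 ± 0.09 (SE, edgeR adjusted p = 0.0106), but this call ended without wild type 3 (0.26, adjusted p = 0.0579), without knockout 1 (adjusted p = 0.0595) and without knockout 2 (adjusted p = 0.0618).

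Mdm2, on chromosome 10 at 117688875 to 117710758, had 206, 198 and 208 CPM in wild-type and 184 and 180 CPM in knockout testes. The groups were apart by a small step of -0.17 ± 0.04 on the log2 scale (SE, edgeR adjusted p = 0.00168). Without wild type 3 the value was -0.15 (adjusted p = 0.0220), in a joint fit of all testis groups it was -0.14 (adjusted p = 0.255), and by the file record it was -0.08 (adjusted p = 0.669).

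Bbc3, on chromosome 7 at 16308393 to 16318205, had 3.68, 3.71 and 3.89 CPM in wild-type testes and 1.36 and 2.28 CPM in knockout testes. The 3 wild-type libraries were close together and both knockout libraries lay well below them. Its log2 difference was -1.01 ± 0.22 (SE, edgeR adjusted p = 0.000956). The value was -0.99 (adjusted p = 0.00778) without wild type 3 and -0.56 (adjusted p = 0.632) by the file record.

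Zmat3 encodes a zinc finger RNA-binding protein that p53 induces, and lies on chromosome 3 at 32334792 to 32366014. It measured 31.7, 39.6 and 38.5 CPM in wild-type testes and 25.3 CPM in each knockout testis. Wild type 1 stood nearest to the knockout libraries, and the groups were apart. The log2 difference was -0.53 ± 0.08 (SE, edgeR adjusted p = 4.26e-05), -0.50 (adjusted p = 0.00104) without wild type 3 and -0.26 (adjusted p = 0.642) by the file record.

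The members that did not pass in these testes were Trp63, with a log2 difference of -0.13 ± 0.16, the arrest gene Cdkn1a (-0.03 ± 0.14), the pore-forming death gene Bax (0.00 ± 0.10), Pmaip1, which encodes the BH3-only protein NOXA (-0.14 ± 0.14), and the cyclin gene Ccng1 (0.12 ± 0.07). Without wild type 3 these were -0.18 for Trp63, -0.10 for Cdkn1a, -0.02 for Bax, -0.15 for Pmaip1 and 0.09 for Ccng1, and none passed. Marker lists of several cell types, and Rn45s, differed between the same libraries. The Rn45s share was 3.96 to 3.97% in the 3 wild-type testes and 5.53 and 5.29% in the knockout testes. Round spermatid markers summed to 262 to 321 CPM in wild-type and 87.2 to 96.5 CPM in knockout testes, and all 10 tested were lower. Their defining genes were not at 0 in any wild-type library, and 3 to 4 of the 12 were at 0 in knockout libraries. The Sertoli list summed to 1503 to 1555 CPM in wild-type and 1802 to 1883 CPM in knockout testes, with 8 of 10 higher, and the spermatogonia list to 298 to 311 CPM and 365 to 376 CPM, with 7 of 10 higher. The pachytene list fell without overlap from 5221 to 5263 CPM to 4439 to 4544 CPM, with 6 of 12 lower and 2 higher. Sums of the list for ciliated, rete and efferent duct epithelium were 64.7 to 78.9 CPM and 31.2 to 32.7 CPM, with 3 of 8 lower. The basal epithelial list, at 547 to 580 CPM and 440 to 445 CPM, had 1 of 8 tested higher and 2 lower. The part of these shifts in the members' values was not tested, and in bulk tissue fewer cells of a type cannot be told apart from less RNA per cell.

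**Figure D2:**
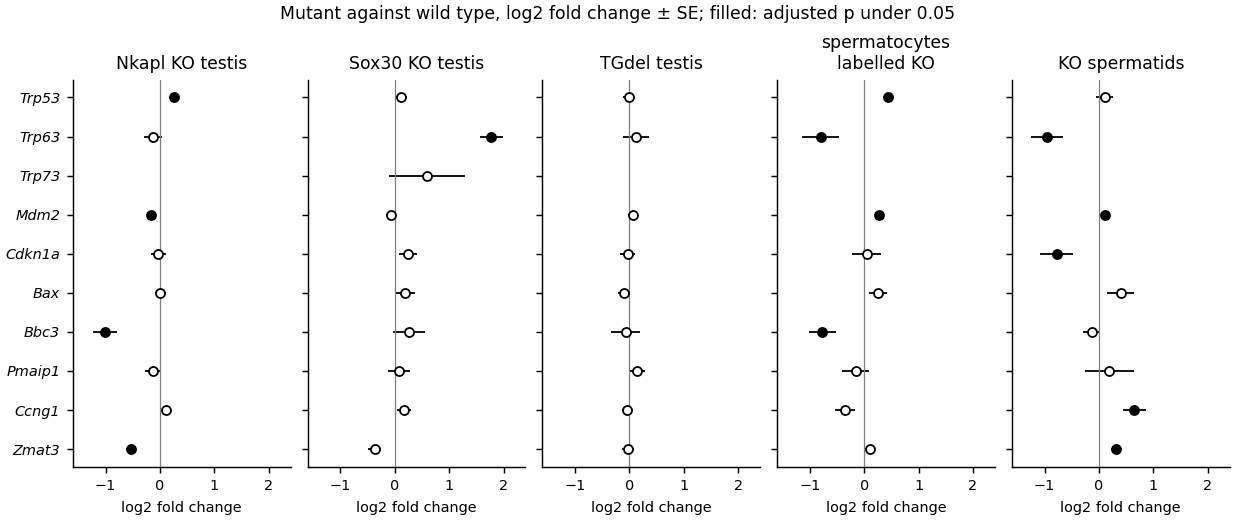
Log2 fold change of mutant against wild type with its standard error (horizontal axis) for the 10 genes in 5 genotype comparisons; filled points have an edgeR adjusted p under 0.05. Trp63 has the largest value, 1.77, in the Sox30 knockout testis, no point is filled in the TGdel testis, and Trp73 was tested only in the Sox30 set.

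In Sox30 knockout testes Trp63 was the single member that passed. Its mean was 3.42-fold that of the wild type of the set. Trp63 lies on chromosome 16 at 25683763 to 25892102 and measured 5.34, 3.81 and 5.85 CPM in wild-type testes and 15.0 and 19.2 CPM in knockout testes. Both knockout libraries lay far above all 3 wild-type libraries. The log2 difference was 1.77 ± 0.22 (SE, edgeR adjusted p = 0.00840), in a fit where 2.42% of all genes passed, 0.505% higher and 1.92% lower. It was 1.89 (adjusted p = 0.00486) without wild type 3, whose record names another group. With only 2 or 3 libraries a side, the call ended at an adjusted p of 0.0592 without wild type 1, 0.0555 without knockout 1 and 0.0614 without knockout 2, while the log2 difference stayed between 1.59 and 1.95. By the file record it was 1.55 (adjusted p = 0.660).

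Within the Sox30 set, some markers of basal epithelium and of the epididymis were higher in the knockout libraries, where Trp63 was also high. Krt5, the basal keratin gene, had 0 counts in all 3 wild-type libraries and 16 and 42 counts in knockout testes (edgeR adjusted p = 0.0473). Krt15 had 0 counts in the same wild-type libraries and 12 and 19 counts in knockout testes, and did not pass (edgeR adjusted p = 0.0550). Both keratin genes were named after their values were seen. They passed the filter on low counts only through the knockout libraries, so their tests carry no weight beyond the counts. Of 13 basal epithelial markers, 12 were tested and 1 was higher. Their sum overlapped between groups at 448 to 514 CPM and 477 to 563 CPM. Most of that sum was 1 gene, Dst, at 380 to 448 CPM in wild-type and 399 to 489 CPM in knockout testes. The sum therefore follows Dst more than the keratin genes. Epididymal principal cell markers summed to 8.24 to 15.6 CPM in wild-type and 50.6 to 81.9 CPM in knockout testes. Of the 14, only 6 passed the filter, which a marker can pass through the knockout libraries alone. Of these 6, 4 were higher, while 2 to 4 of the 14 stayed at 0 in the knockout libraries. The same sum was 46.4 CPM in TGdel-set wild type 1 and 31.6 CPM in TGdel 1, where Trp63 was at 2.81 and 2.59 CPM. It was 8.40 to 11.3 CPM in the other TGdel-set libraries. In sorted cells this sum was 54.7 to 55.5 CPM in wild-type spermatocytes and 143 to 161 CPM in wild-type spermatids. It therefore does not mark epididymal cells alone. Of 8 markers of ciliated, rete and efferent duct epithelium, 2 were higher, and their sum overlapped at 58.9 to 78.0 CPM and 54.2 to 99.8 CPM. Their part in the Trp63 value was not tested.

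**Figure D3:**
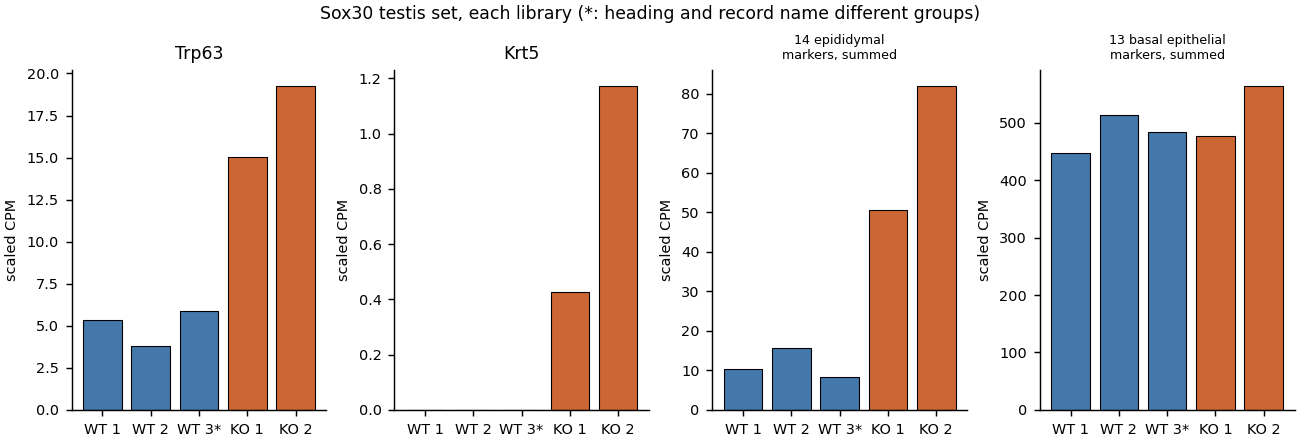
Scaled CPM (vertical axes, from 0) in each library of the Sox30 testis set for Trp63, the basal keratin gene Krt5, the sum of 14 epididymal markers and the sum of 13 basal epithelial markers; blue is wild type, orange is knockout and the asterisk marks the library whose record names another group. The first 3 quantities are higher in both knockout libraries than in every wild-type library, and the basal sum, most of which is the gene Dst, overlaps.

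The other members of the Sox30 set did not pass. Zmat3 measured 33.7, 38.1 and 31.3 CPM in wild-type testes and 26.9 and 26.4 CPM in knockout testes, and these groups did not overlap. Its log2 difference was -0.37 ± 0.12 (SE, edgeR adjusted p = 0.301), and -0.44 (adjusted p = 0.245) without wild type 3. With the replicate number as a block it was -0.43 (adjusted p = 0.00761), although the numbers share nothing known. Trp53 had 24.8, 22.5 and 26.2 CPM in the wild type and 26.6 and 26.4 CPM in the knockout, a log2 difference of 0.11 ± 0.11. Bbc3 overlapped between groups at 1.96 to 3.03 CPM and 2.35 to 3.71 CPM. Without wild type 3, Bbc3 was at 0.41 and Trp53 at 0.15, and no member but Trp63 passed. Groups did not overlap for 4 of 10 members and for 21% of all genes tested. The median absolute log2 difference was 0.22 over the members and 0.11 over all genes. In this set 2 members had an unadjusted p under 0.05 in the edgeR test, Trp63 and Zmat3.

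In TGdel testes no member passed. Of the 9 tested, 0 had an adjusted p and 0 an unadjusted p under 0.05 in edgeR's test, and DESeq2 and limma-voom also called 0, while 1.25% of all genes passed in edgeR, 0.2% higher and 1.05% lower. Log2 differences ran from -0.10 ± 0.11 for Bax to 0.15 ± 0.14 for Pmaip1. Bbc3 was 3.38 and 2.31 CPM in wild-type and 2.23 to 3.11 CPM in TGdel testes, and its log2 difference of -0.07 ± 0.27 had the widest error of the 9. Mdm2 was at 0.06 ± 0.09, Cdkn1a at -0.03 ± 0.14 and Ccng1 at -0.04 ± 0.10. Trp53 had 34.5 and 31.8 CPM in wild-type and 29.5, 35.3 and 33.6 CPM in TGdel testes. Zmat3 had 21.7 and 20.7 CPM in wild-type and 22.4, 20.8 and 19.0 CPM in TGdel testes. Groups overlapped for each tested member, whereas they did not for 33.5% of all genes. Without the libraries in dispute, Bbc3 was at -0.43 (adjusted p = 0.811), Trp63 at -0.13 (adjusted p = 0.958) and Zmat3 at -0.13 (adjusted p = 0.893), and the other 6 lay between -0.00359 for Bax and 0.13 for Pmaip1. No member passed without TGdel 1, the library with the higher Rn45s share.

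In spermatocytes labelled knockout, Trp53 and Mdm2 were higher and Trp63 and Bbc3 were lower than in wild-type spermatocytes. The 4 calls, of 9 members tested, stand in a fit where 59.2% of all genes tested passed, 33.6% higher and 25.7% lower. With so few members this is near the background. Trp53 had 11.2 and 11.6 CPM in the wild type and 16.4 and 14.5 CPM in those labelled knockout. The log2 difference was 0.44 ± 0.10 (SE, edgeR adjusted p = 0.000459). Wrap53 was higher in the same libraries, by 0.60 ± 0.11 (SE, edgeR adjusted p = 2.13e-05). Mdm2 had 205 and 203 CPM against 246 and 248 CPM, a log2 difference of 0.28 ± 0.05 (SE, edgeR adjusted p = 1.07e-05). Both genes were clear of overlap, and neither call was lost in any of the 11 alternatives.

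Bbc3 had 2.29 and 2.41 CPM in wild-type spermatocytes and 1.72 and 1.03 CPM in those labelled knockout. Its log2 difference was -0.77 ± 0.25 (SE, edgeR adjusted p = 0.00833), and it was -0.45 (adjusted p = 0.195) without library 2 of the group labelled knockout. Trp63 had 1.68 and 1.14 CPM against 0.626 and 0.982 CPM, a log2 difference of -0.80 ± 0.34 (SE, edgeR adjusted p = 0.0440). That call was lost in 5 of 11 alternatives, at -0.50 (adjusted p = 0.330) without wild-type library 1, at -0.51 (adjusted p = 0.302) without library 1 of the group labelled knockout, and at an adjusted p of 0.160 in DESeq2. Ccng1 was not called at -0.36 ± 0.18, with 3.55 and 3.64 CPM against 2.92 and 2.69 CPM, and Bax was not called at 0.25 ± 0.17. Groups did not overlap for 6 of 9 members and for 77.9% of all genes. Round spermatid markers summed to 2530 to 2654 CPM in wild-type spermatocytes and to 1082 to 1083 CPM in those labelled knockout, the Sertoli list to 229 to 241 CPM and 159 to 162 CPM, and the spermatogonia list to 102 to 105 CPM and 139 to 144 CPM. Their part in the values was not tested.

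In knockout round spermatids, Zmat3, Ccng1 and Mdm2 were higher and Trp63 and Cdkn1a were lower than in the wild type. The background was 60% of all genes called, 29% higher and 31% lower, close to the 5 of 9 members called. Zmat3 had 34.0 and 32.3 CPM in the wild type and 41.4 and 40.6 CPM in the knockout. The difference was 0.31 ± 0.08 on the log2 scale (SE, edgeR adjusted p = 0.00208), and its adjusted p was 0.0542 without wild-type library 2. Mdm2 had 231 and 226 CPM against 248 and 246 CPM, a step of 0.11 ± 0.05 (SE, edgeR adjusted p = 0.0427) that lost its call in 6 of 11 alternatives, among them the removal of each of the 4 libraries compared, where the highest adjusted p was 0.315.

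Ccng1, which lies on chromosome 11 at 40748552 to 40755311 and encodes cyclin G1, had 1.93 and 2.08 CPM in wild-type spermatids and 3.55 and 2.75 CPM in knockout spermatids. Both knockout libraries were higher, by 0.65 ± 0.22 on the log2 scale (SE, edgeR adjusted p = 0.0111). The call ended without wild-type library 1 (adjusted p = 0.0808), without knockout library 1 (0.43, adjusted p = 0.182) and in DESeq2 (adjusted p = 0.0801). Cdkn1a, on chromosome 17 at 29090976 to 29100727, encodes the cyclin-dependent kinase inhibitor p21 and had 1.81 and 2.14 CPM against 1.26 and 1.03 CPM. Its log2 difference was -0.78 ± 0.30 (SE, edgeR adjusted p = 0.0266), and the call ended without wild-type library 2 (adjusted p = 0.147), without knockout library 2 (adjusted p = 0.141) and in DESeq2 (adjusted p = 0.158). Trp63 had 2.51 and 2.31 CPM against 0.802 and 1.66 CPM, a log2 difference of -0.96 ± 0.29 (SE, edgeR adjusted p = 0.00582) that lost its call without knockout library 1 (-0.56, adjusted p = 0.148) and in DESeq2 (adjusted p = 0.0835).

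Bbc3 stayed at 6.01 and 6.53 CPM in wild-type and 6.25 and 5.22 CPM in knockout spermatids and was not called, at -0.13 ± 0.16. Trp53 was at 4.85 and 4.22 CPM against 4.93 and 4.82 CPM and was not called either, at 0.10 ± 0.16. Groups did not overlap for 6 of 9 tested members and for 79.9% of all genes. Round spermatid markers summed to 7985 to 8146 CPM in wild-type spermatids and 2875 to 2942 CPM in knockout spermatids. The macrophage list was at 16.5 to 16.9 CPM and 35.9 to 37.2 CPM, and the Leydig list at 9.63 to 9.71 CPM and 22.6 to 23.6 CPM. Other somatic lists went the other way. The peritubular myoid list was at 272 to 279 CPM in the wild type and 119 CPM in each knockout library. The endothelium list was at 21.0 to 21.4 CPM and 17.7 to 19.2 CPM. Their part in the members' values was not tested.

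Between the sorted stages of the wild type the median absolute log2 difference was 0.84 over the 9 members and 0.75 over all genes. Between genotypes it was 0.28 and 0.37 in spermatocytes and 0.31 and 0.41 in spermatids, so members and all genes alike had larger medians by stage. Not each member followed this, as the values of Zmat3, Cdkn1a, Mdm2 and Trp63 show. In the wild type, spermatids had less Trp53, Bax, Pmaip1 and Ccng1 and more Bbc3, Trp63 and Mdm2 than spermatocytes, while 77.5% of all genes were called, 41.1% higher and 36.4% lower. Trp53 went from 11.2 and 11.6 CPM to 4.85 and 4.22 CPM, a log2 difference of -1.33 ± 0.13 (SE, edgeR adjusted p = 1.97e-10). Bax, on chromosome 7 at 45461697 to 45466898, went from 3.36 and 4.01 CPM to 1.52 and 1.73 CPM, a log2 difference of -1.18 ± 0.21 (SE, edgeR adjusted p = 1.44e-05). Pmaip1, on chromosome 18, went from 1.73 and 2.09 CPM to 0.584 and 0.520 CPM, a log2 difference of -1.78 ± 0.34 (SE, edgeR adjusted p = 2.31e-05). All spermatid libraries lay below all spermatocyte libraries for these 3 genes.

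Bbc3 ran against them, from 2.29 and 2.41 CPM in wild-type spermatocytes to 6.01 and 6.53 CPM in wild-type spermatids, a log2 difference of 1.41 ± 0.18 (SE, edgeR adjusted p = 3.55e-08). Bax, Pmaip1 and Bbc3 all encode proteins of the mitochondrial death pathway, so its members went in both directions. Ccng1 fell by 0.84 ± 0.20 on the log2 scale (SE, edgeR adjusted p = 0.000472). Trp63 was higher by 0.78 ± 0.27 (SE, edgeR adjusted p = 0.0109), a call lost without wild-type spermatocyte library 2 (0.52, adjusted p = 0.129), without wild-type spermatid library 1 (0.67, adjusted p = 0.0954) and in DESeq2 (adjusted p = 0.112). Mdm2 was higher by 0.16 ± 0.05 (SE, edgeR adjusted p = 0.00283), lost in 4 of 11 alternatives, among them the removal of wild-type spermatid library 1 (0.09, adjusted p = 0.147) and of wild-type spermatid library 2 (0.13, adjusted p = 0.0518). Zmat3 and Cdkn1a were not called, at -0.06 ± 0.08 and 0.25 ± 0.26. Groups did not overlap for 8 of 9 members and for 87.3% of all genes. Unscaled library totals move the median of all genes by -0.32 on the log2 scale in this comparison, which is larger than the Mdm2 difference and smaller than those of Trp53, Bax, Pmaip1 and Bbc3.

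The same genes were compared in the libraries labelled knockout, where 77% of all genes were called, 37.7% higher and 39.3% lower. Bbc3 was higher in spermatids by 2.05 ± 0.21 (SE, edgeR adjusted p = 4.91e-10). Trp53 was lower, at -1.67 ± 0.12 (SE, edgeR adjusted p = 3.62e-13), as were Bax, at -1.03 ± 0.20 (SE, edgeR adjusted p = 2.99e-05), and Pmaip1, at -1.43 ± 0.34 (SE, edgeR adjusted p = 0.000375). Groups did not overlap for 5 of 9 members and for 88.7% of all genes. Ccng1 was not called, at 0.17 ± 0.20, and Mdm2 was not called, with 246 and 248 CPM in spermatocytes and 248 and 246 CPM in spermatids. Sertoli markers, which sorted germ cells should lack, summed to 229 to 241 CPM in wild-type spermatocytes and 32.2 to 32.9 CPM in wild-type spermatids, and to 159 to 162 CPM and 37.1 to 39.3 CPM in the libraries labelled knockout. None of the 10 Sertoli markers was at 0 in any sorted library. The Leydig list fell too, at 46.6 to 47.3 CPM in wild-type spermatocytes and 9.63 to 9.71 CPM in wild-type spermatids. So did the red blood cell list. Other somatic lists rose in the same comparison. The macrophage list was at 4.11 to 4.87 CPM and 16.5 to 16.9 CPM, and the endothelium list at 8.47 to 10.6 CPM and 21.0 to 21.4 CPM. Of the peritubular myoid list, 5 of 5 tested were higher in wild-type spermatids. The part of these lists in the stage differences was not tested.

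**Figure D4:**
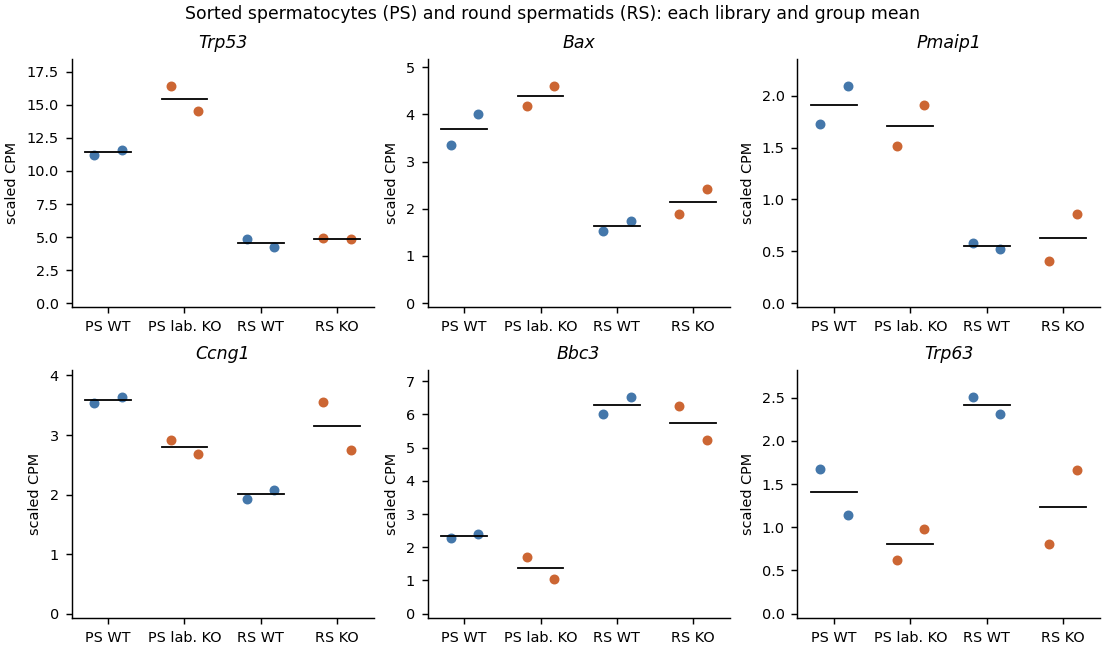
Scaled CPM (vertical axes, from 0) of 6 genes in the 8 sorted libraries; PS are pachytene spermatocytes, RS are round spermatids, the bar is the group mean and orange marks libraries labelled knockout. Trp53, Bax and Pmaip1 are lower in every spermatid library than in every spermatocyte library, Bbc3 is higher in every spermatid library, and the Ccng1 mean of the libraries labelled knockout lies below the wild type in spermatocytes, where it was not called, and above it in spermatids.

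Whether a genotype difference itself differed between settings was tested as a contrast. Ccng1 was the single member called in the contrast of spermatids against spermatocytes, with a difference of differences of 1.01 ± 0.28 (SE, edgeR adjusted p = 0.00930), while 25.5% of all genes passed this contrast, 9.02% in the higher and 16.4% in the lower direction. It was 0.86 (adjusted p = 0.0660) without knockout spermatid library 1 and 1.08 (adjusted p = 0.0787) in DESeq2. Both sides rest on 2 libraries a group, and the spermatocyte side rests on the label that the Nkapl level puts in doubt. Mdm2 (-0.16 ± 0.07), Bbc3 (0.64 ± 0.29) and Cdkn1a (-0.83 ± 0.40) were not called but had an unadjusted p under 0.05 in edgeR. Bbc3 reached 1.04 (adjusted p = 0.0408) without library 1 of the spermatocytes labelled knockout, and Cdkn1a reached -1.22 (adjusted p = 0.0317) without library 2 of that group. Mdm2 passed without either wild-type spermatocyte library (adjusted p = 0.0275 and 0.0490), and Zmat3, at 0.20 ± 0.11, passed at 0.33 (adjusted p = 0.0144) without the second of them.

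Trp63 was the single member called in the contrast between Nkapl and Sox30 knockout testes. The Nkapl minus Sox30 contrast was -1.88 ± 0.27 (SE, edgeR adjusted p = 0.00236), where 3.84% of all genes passed (0.283% higher and 3.55% lower), and it was -2.06 (adjusted p = 0.0236) without the libraries in dispute and -1.69 by the file record, where it was not called. Bbc3 did not pass there (-1.27 ± 0.39, edgeR adjusted p = 0.0953), although its unadjusted p was under 0.05, next to its fall in Nkapl knockout testes and its value of 0.27 ± 0.29 in Sox30 knockout testes. It passed at -1.56 (adjusted p = 0.0204) without Sox30 knockout 1 and was at -1.41 (adjusted p = 0.251) without the libraries in dispute. Between the Nkapl knockout and TGdel, 0 of 9 members passed in edgeR, DESeq2 and limma-voom, 3 had an unadjusted p under 0.05 in edgeR, and 0.295% of all genes passed, 0.0283% higher and 0.266% lower. The largest of these values were -0.94 ± 0.41 for Bbc3 and -0.49 ± 0.16 for Zmat3.

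The wider p53 pathway was described with 6 lists of 103 genes in all. In Nkapl knockout testes 30 were higher and 14 lower of the 99 tested, next to 17.8% and 26.1% over all genes. The median log2 difference was 0.11 over the lists and 0.01 over all genes. Bcl2l14, a BCL2-related gene that was higher in spermatids than in spermatocytes by 1.51 ± 0.05, had 436, 316 and 326 counts in wild-type and 6 and 13 counts in knockout testes, a log2 difference of -5.30 ± 0.25 (SE, edgeR adjusted p = 1.59e-11). Among inhibitors of p53, 2 of 9 were higher and 3 lower, among them the phosphatase gene Ppm1d, which fell by 0.83 ± 0.05 (SE, edgeR adjusted p = 9.29e-10). Of 12 tested BCL2 family genes, 4 were higher, among them the BH3-only genes Bcl2l11 (0.51 ± 0.08) and Bmf (0.61 ± 0.12), and 1 was lower, Bad (-0.18 ± 0.06). Caspases and their regulators had 8 higher and 2 lower of 25, including Casp2 (0.32 ± 0.06) and Birc5 (-0.21 ± 0.05). Activators and cofactors split evenly with 4 higher and 4 lower of 15, including the kinase gene Atm (0.24 ± 0.04) and the acetyltransferase gene Kat5 (-0.27 ± 0.04). Targets of arrest, repair and metabolism had 7 higher and 2 lower of 23, including Ddit4 (0.45 ± 0.07) and Trp53i11 (-0.62 ± 0.06), and targets of cell death 5 higher and 2 lower of 15, including Aen (0.41 ± 0.07). Over all lists DESeq2 called 19 higher and 13 lower, a joint fit of all testis groups called 11 and 5, and grouping by the file record left 0. Without wild type 3 there were 20 and 12. Fits without knockout 1 or knockout 2 leave 1 library in that group, and their counts are not given. Counts over all genes were also lower in the joint fit and by the file record, so these falls are not particular to the lists. For DESeq2 and the fit without wild type 3 the share over all genes is not given here, so their counts are not read as results about the lists.

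In Sox30 knockout testes 0 of 98 pathway genes passed in edgeR, 4 had an unadjusted p under 0.05, DESeq2 called 2 and limma-voom 0, where 2.42% of all genes passed in edgeR, so the count of 0 is near the background. In TGdel testes 0 of 97 passed in edgeR, 9 had an unadjusted p under 0.05, DESeq2 called 1 and limma-voom 0, where 1.25% of all genes passed, again near the background. Without the libraries in dispute edgeR called 0 in the Sox30 set and 1 lower in the TGdel set. Spermatocytes labelled knockout had 42 higher and 17 lower of 91, next to 33.6% and 25.7% of all genes. Among them were the apoptosome gene Casp9 (0.75 ± 0.10), the pro-death gene Bak1 (0.60 ± 0.08), the survival gene Bcl2l1 (0.37 ± 0.05), the deacetylase gene Sirt1 (0.70 ± 0.07) and the p53-binding genes Trp53bp1 (0.53 ± 0.06) and Trp53bp2 (0.88 ± 0.12) on the higher side. On the lower side were Bcl2l14 (-0.72 ± 0.05), Ercc5 (-0.77 ± 0.12) and Pml (-0.94 ± 0.28). DESeq2 called 27 higher and 10 lower, and its share over all genes is not given here.

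Knockout spermatids had 31 pathway genes higher and 16 lower of 91, next to 29% and 31% of all genes. The antiproliferative p53 target Btg2 was higher by 1.56 ± 0.12, Ptpn14 by 1.13 ± 0.11 and Bad by 0.56 ± 0.06. The death receptor gene Tnfrsf10b fell by 1.80 ± 0.22, the p53 kinase gene Hipk2 by 1.42 ± 0.14, the repair nuclease gene Ercc5 by 1.14 ± 0.10 and the translesion polymerase gene Polk by 0.81 ± 0.06. Each of these 7 had an edgeR adjusted p of at most 5.87e-08. Of 10 tested BCL2 family genes, 6 were higher and 0 lower.

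From spermatocytes to spermatids in the wild type, 21 pathway genes were higher and 47 lower of 91, against 41.1% and 36.4% of all genes, and the median log2 difference was -0.39 over the lists and 0.05 over all genes. Caspases and their regulators had 1 higher and 15 lower of 24, among them the nuclease inhibitor gene Dffa (-2.43 ± 0.18) and Diablo (-1.03 ± 0.06). The checkpoint kinase gene Atr fell by 1.01 ± 0.05 and Sirt1 by 1.47 ± 0.09. Ppm1d and Usp7, whose product removes ubiquitin from p53 and Mdm2, were higher by 1.10 ± 0.05 and 0.93 ± 0.05. The libraries labelled knockout gave 18 higher and 49 lower of 91 in the same comparison, next to 37.7% and 39.3% of all genes.

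**Figure D5:**
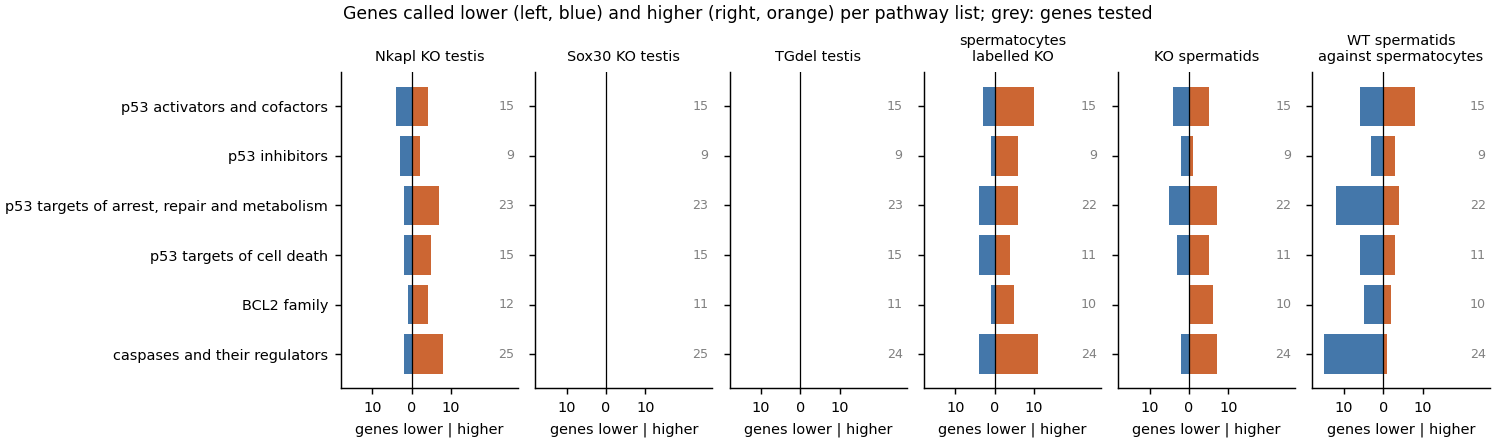
Number of genes called lower (left, blue) and higher (right, orange) in each of 6 p53 pathway lists (vertical axis) for 6 comparisons, by edgeR adjusted p under 0.05, with the number tested in grey. No gene is called in the Sox30 knockout or TGdel testis, and from wild-type spermatocytes to spermatids 15 of 24 caspases and regulators are lower.

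Genes whose levels followed Trp53 and Trp63 most closely were read from 23 libraries after the mean of each of the 4 sets was taken out, over values that share libraries, scaling and, for the sorted set, the stage contrast. For Trp53 these were Pskh1 (r = 0.99), U2af2 (r = 0.99) and Plekhg4 (r = 0.99). For Trp63 they were Slc16a9 (r = 0.87), Coq8b (r = 0.87) and Trpv6 (r = 0.82). Among the members themselves, Trp53 correlated with Bax at r = 0.90 and with Pmaip1 at r = 0.85, and with Bbc3 at r = -0.85. Trp63 reached at most r = 0.46, with Bbc3. These correlations describe the libraries and carry no test.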

How the data were processed

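For each of 24682 gene symbols the authors deposited whole-number read counts, unscaled, in 26 files. The libraries were stranded total RNA libraries from Trizol extracts, per the labels' protocols. HISAT2 2.1.0, HTSeq, DESeq2 and the build mm10 are named, without their roles, per the submitters' processing notes. Annotation and strand setting are not given in the sources used. Overlapping, antisense and near-identical genes are therefore uncertain.

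The files hold 23 distinct libraries, because 3 pairs of testis files are identical and were counted once. Libraries were grouped by the heading inside the file, which names another sample than the record in 15 of 18 testis files. HTSeq summary lines, 18.8 to 24.6% of sorted files, were left out.

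Each testis set, and the 8 sorted libraries together, were fitted in R 4.3.3 with edgeR 4.0.16 (filterByExpr by group, TMM scaling, quasi-likelihood F test, two-sided, Benjamini-Hochberg over all genes tested, adjusted p under 0.05). Adjusted p-values given with an alternative grouping, or with a library left out, come from the same test. SE is the absolute log2 difference divided by the square root of F. The design had assumed 3 libraries against 3 in testis. In simulated counts with a log2 change of 1, edgeR recovered 99% of changed genes in the Nkapl set, 69% in the Sox30 set, 79% in the TGdel set and 98% in spermatocytes. Only 100 genes per size of change were changed, far fewer than were called in the Nkapl set and in spermatocytes. They were drawn only above a cut on CPM, so these shares do not cover low members such as Trp63 and Pmaip1 in sorted cells. Unchanged genes were 10.4%, 8.29%, 12% and 7.04% of the calls in these 4 simulations, over both sizes of change simulated, and 2 genes of the TGdel set had the wrong sign. DESeq2 1.42.0, limma-voom (limma 3.58.1), other scaling, filters and groupings, the replicate block and libraries left out were alternatives. Exon lengths and positions come from GENCODE vM21 (GRCm38) and promoter windows from RefSeq (GRCm38.p6), where entries matched 7 of the searched members.

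Members and lists were chosen with earlier results of these data known. The rule for naming genes took the 10 members, with Nkapl and Sox30 as checks of the labels and Wrap53 as the neighbour of Trp53, then up to 2 called genes per direction and pathway list with the smallest p, and the 3 genes most correlated with Trp53 and Trp63. Not each of these is printed for every comparison. Krt5 and Krt15 were named after their values were seen. In every group, replicate libraries differed on average over genes by more than counting noise (chi-square per degree of freedom 1.40 to 42.0). The median chi-square of a gene was 0.572 in spermatocytes labelled knockout, 0.610 in knockout spermatids, 0.724 in wild-type spermatids and 1.13 in wild-type spermatocytes. For many genes the first 3 of these pairs were near counting noise, so p-values in sorted cells rest on little spread between libraries.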

Additional observations from a re-analysis of the deposited data

Results flagged for a closer look

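Genotype differences whose contrast between 2 settings passed the test are listed here as values. Over members, the knockout difference of Ccng1 was larger in spermatids than in spermatocytes by 1.01 on the log2 scale (edgeR adjusted p = 0.00930), and that of Trp63 was lower in Nkapl than in Sox30 knockout testes, with a contrast of -1.88 (edgeR adjusted p = 0.00236).

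Among pathway genes, the knockout difference was higher in spermatids than in spermatocytes for Kat5 (0.23), Ppm1d (0.18), Btg2 (1.52), Plk2 (0.62) and Bad (0.25). It was lower in spermatids for Crebbp (-0.73), Ep300 (-0.57), Usp2 (-0.44), Rfwd2 (-0.42), Polk (-0.53), Rps27l (-0.48), Tnfrsf10b (-1.25), Birc6 (-0.68) and Htra2 (-0.65). Each passed in edgeR at an adjusted p of at most 0.0368. Between the knockouts, Bcl2l14 had a contrast of -4.88 (edgeR adjusted p = 0.0365), a call lost in 12 of 18 alternatives, where values ran from -5.59 to -0.82. It was -4.64 (adjusted p = 0.151) without the libraries in dispute, and its counts in the 2 Sox30 knockout testes were 248 and 1090.

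For some members every library moved one way in Nkapl knockout testis and the other way in at least 1 of the sorted cell types, and the difference between testis and cells was not tested. Mdm2 was at -0.17 in testis, 0.28 in spermatocytes labelled knockout and 0.11 in knockout spermatids. Zmat3 was at -0.53 in testis and 0.31 in knockout spermatids, and at 0.10 with overlapping groups in spermatocytes labelled knockout. Ccng1 was at 0.12 in testis and -0.36 in spermatocytes labelled knockout, and neither of these passed the test, while it was at 0.65 in knockout spermatids (edgeR adjusted p = 0.0111), the same direction as in testis.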

How the results depend on the processing

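Over all alternatives, 1176 values of members kept their side of the threshold, 41 lost a call, 14 gained one and 0 changed sign where a value passed. For Nkapl, Sox30 and Wrap53 these numbers were 383, 21, 4 and 0, and Sox30 passed in its knockout testes in DESeq2 (adjusted p = 0.0434), with the replicate block and in a joint fit. Counts of members moved by over 1.5 times as follows. The share over all genes in the same fits is not given beside them, so a moved count need not be particular to the members. Grouping by the file record gave 0 higher and 0 lower in Nkapl knockout testes, 0 higher in Sox30 knockout testes and 0 lower in the Nkapl minus Sox30 contrast. DESeq2 called 1 lower in spermatocytes labelled knockout, 0 lower in knockout spermatids and 0 higher in the spermatid minus spermatocyte contrast. limma-voom and no filter each called 1 lower in spermatocytes labelled knockout. RLE scaling and a fit of only the 2 groups compared each called 2 higher between the stages in the libraries labelled knockout.

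The samples share only a number. With the replicate block 1 member was lower in Sox30 knockout testes, Zmat3, and Mdm2 lost its call in knockout spermatids (adjusted p = 0.0510). Same-numbered libraries had correlated deviations of 0.11 and 0.62 in that testis set and of -0.31 to 0.06 elsewhere.

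With each library left out in turn, members called ranged from 0 to 1 higher in Nkapl and in Sox30 knockout testes, 1 to 2 lower in spermatocytes labelled knockout, 1 to 3 higher and 1 to 2 lower in knockout spermatids, 1 to 3 higher between wild-type stages, 1 to 2 higher between stages in the libraries labelled knockout, 0 to 2 higher and 0 to 1 lower in the spermatid minus spermatocyte contrast, and 1 to 2 lower in the Nkapl minus Sox30 contrast. Where 1 library was left in a group, its spread was taken from the other groups. Shares over all genes are not given for these fits, so the ranges do not show whether only the members lost or gained calls.

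Counts over all genes were least stable in the small testis sets. Sox30 knockout testes had 90 higher and 342 lower genes, against 137 and 628 in DESeq2, 48 and 32 in limma-voom, 358 and 1370 with the block, 183 and 713 in a joint fit, 0 and 0 by the file record, and 610 lower without the library in dispute. TGdel testes had 32 and 168, against 211 and 365 in DESeq2, 12 and 76 with no filter, 0 and 0 with the block and by the file record, and 8 and 320 without the libraries in dispute. Nkapl knockout testes had 3013 and 4420, against 833 and 2518 in a joint fit, 0 and 0 by the file record, and 1816 higher without knockout 2. Depth limits Trp73, with at most 14 counts, and members near 1 CPM in sorted cells.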
